A study of Mus musculus with 12 samples.

Results

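The 36 genes described here are autosomal mouse genes whose probe was scored well above background in cloned morulae and in none of the IVF morulae. Genes were selected on the detection flag of their probe, which had to be set in 7 or 8 of the 8 cloned embryos and in 0 of the 4 embryos made by in vitro fertilisation (IVF). Since these flags chose the genes, every difference between clones and IVF embryos below is a description and carries no test. The criteria were met by probes for 37 of the 17648 autosomal genes with a probe on the array, and 1 of these, Meioc, was left out.

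The study set cloned embryos given an siRNA against Xist beside cloned embryos given a control siRNA and beside IVF embryos. All were (C57BL/6 x DBA/2) F1 morulae, and each array held amplified RNA from a single whole embryo. Clones carried the nucleus of a Sertoli cell, which nurses developing sperm in the testis, and were injected 6 to 7 h after activation, at the 1-cell stage. There were 4 siXist clones and 4 siCont clones, all male, and 4 uninjected IVF embryos, of which 2 were male (replicates 1 and 3) and 2 female (replicates 2 and 4). Every embryo was cultured in KSOM for 72 h. The labels do not say whether embryos of a class came from separate sessions or donors, so p-values measure the spread between these embryos alone.

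In a cloned embryo the transferred nucleus carries the chromatin state of the donor cell, and the oocyte cytoplasm resets it while the genome is switched on again. Resetting is known to be incomplete at some genes, and the long RNA Xist, which silences the X chromosome it is transcribed from, is known to be made from the single X of male clones. An Agilent probe counts as well above background when its spot exceeds the local background by a margin the scanner software sets from the noise of that array.

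A level below is the log2 processed signal of a probe minus that of the 75th percentile of its array. Xist, the siRNA target, averaged 1.93 ± 0.48 in siXist clones, 4.97 ± 0.48 in siCont clones and -0.39 ± 6.52 in the mixed-sex IVF embryos (SD, n = 4 each), and the siXist minus siCont difference of -3.04 ± 0.49 (SE) had a limma adjusted p of 0.111. The lowest level scored well above background averaged -6.56 ± 0.16 on siXist arrays, -5.97 ± 0.28 on siCont arrays and -6.00 ± 0.26 on IVF arrays (SD, n = 4 each). Between 58.7% and 61.5% of probes were well above background on siXist arrays, 50.8% to 59.0% on siCont arrays and 56.1% to 61.1% on IVF arrays. The classes were hybridised on separate slides and scanned separately, so class and slide cannot be told apart. The morula markers Pou5f1 and Zfp42 were bright in every class. Their mean levels were 4.50 and 5.29 in siXist clones, 4.21 and 5.15 in siCont clones and 5.12 and 6.05 in IVF embryos. Both belong to a list of 6 tested pluripotency genes, whose median clones minus IVF difference was -1.12. Sox2, of the same list, averaged -7.0 in siXist clones, -5.4 in siCont clones and -0.2 in IVF embryos. Of the 6, limma gave 0 an adjusted p under 0.05 and 2, both lower in clones, an unadjusted p under 0.05.

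The promoters of Anxa1, Ppp1r36 and Slc22a4, which are 3 of the 4 genes with the largest bounds of clones over IVF embryos (a lower limit of the fold difference, defined beside the gene counts), and of the related genes Cyp2j11 and Cyp2j13, are printed to show how unlike the start regions of these genes are. RefSeq (GRCm38.p6) gave a window of 250 bases before to 50 after the start for 28 of the 36 genes. CG dinucleotides, the sites of DNA methylation, are in capitals. Anxa1 at chr19:20390622-20390921 on the minus strand holds 3 of them, Ppp1r36 at chr12:76417349-76417648 on the plus strand 24 and Slc22a4 at chr11:54028055-54028354 on the minus strand 29. Cyp2j11 at chr4:96348631-96348930 holds 3 and Cyp2j13 at chr4:96077491-96077790 holds 4, both on the minus strand.
Anxa1: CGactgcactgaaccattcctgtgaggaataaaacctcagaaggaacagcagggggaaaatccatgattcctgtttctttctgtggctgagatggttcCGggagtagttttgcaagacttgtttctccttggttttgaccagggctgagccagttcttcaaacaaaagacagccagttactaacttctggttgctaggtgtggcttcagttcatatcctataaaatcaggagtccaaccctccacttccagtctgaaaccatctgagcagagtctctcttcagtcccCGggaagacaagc
Ppp1r36: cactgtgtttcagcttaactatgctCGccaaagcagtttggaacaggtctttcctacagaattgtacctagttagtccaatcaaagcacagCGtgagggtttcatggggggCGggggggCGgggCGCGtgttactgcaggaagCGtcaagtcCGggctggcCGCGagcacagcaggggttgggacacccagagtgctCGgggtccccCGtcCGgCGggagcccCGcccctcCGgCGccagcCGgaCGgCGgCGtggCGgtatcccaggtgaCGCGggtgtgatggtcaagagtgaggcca
Slc22a4: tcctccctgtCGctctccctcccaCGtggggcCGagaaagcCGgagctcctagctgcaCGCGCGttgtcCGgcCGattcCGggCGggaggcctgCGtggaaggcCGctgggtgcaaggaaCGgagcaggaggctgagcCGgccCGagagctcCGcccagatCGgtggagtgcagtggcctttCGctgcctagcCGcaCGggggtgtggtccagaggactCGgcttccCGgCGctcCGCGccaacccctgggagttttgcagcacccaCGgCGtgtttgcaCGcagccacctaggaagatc
Cyp2j11: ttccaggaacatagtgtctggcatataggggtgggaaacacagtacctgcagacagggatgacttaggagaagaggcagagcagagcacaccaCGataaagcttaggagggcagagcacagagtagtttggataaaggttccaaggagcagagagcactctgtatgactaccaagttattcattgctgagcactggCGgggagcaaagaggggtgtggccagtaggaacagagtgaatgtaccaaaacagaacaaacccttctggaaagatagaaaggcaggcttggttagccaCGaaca
Cyp2j13: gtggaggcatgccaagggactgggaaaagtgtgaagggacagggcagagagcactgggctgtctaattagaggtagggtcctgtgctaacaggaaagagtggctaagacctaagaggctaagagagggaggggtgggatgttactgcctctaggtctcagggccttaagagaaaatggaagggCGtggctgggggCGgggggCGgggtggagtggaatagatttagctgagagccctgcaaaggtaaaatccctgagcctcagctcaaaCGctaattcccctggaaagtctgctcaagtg

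The printed windows lay on either side of the median. Across the 28 windows the median number of CG dinucleotides was 9, beside 16 over 14012 autosomal genes with a probe, while the median GC content was 58.0% in both. A window counted as CpG-rich when its GC content was at least 50% and its CG count at least 0.6 of that its base composition would give. This held for 10 of the 28 genes (35.7%), among them Ikbip, Nuak1 and Efna5, beside 52.8% of all 14012. On either strand the letters TATAAA stood in 7.14% of the 28 windows and 12% of all, GGGCGG in 53.6% and 52.2%, and CCAAT in 10.7% and 38.2%. These 3 strings do not contain each other. The Cyp2j11 and Cyp2j13 windows shared 158 bases in a global alignment, 49.4% of its length.

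Of the 36 genes, 12 were detected on all 8 clone arrays and 24 on 7, with the dim array an siXist clone for 13 and an siCont clone for 11. Per embryo, 34, 28, 34 and 35 of the genes were well above background in siXist clones 1 to 4, 31, 36, 34 and 32 in siCont clones 1 to 4, and 0 in each IVF embryo. Clone 2 of the siXist arm therefore lacked the most, 8 genes. By a bound that sets the mean clone level against the IVF level, each IVF array raised to its lowest level well above background where the probe lay under it, 4 genes were at least 16-fold higher in clones, a further 9 at least 4-fold, a further 7 at least 2-fold and 16 less than 2-fold. The median bound was 2.31-fold. Clone and IVF values did not overlap in 14 genes, beside 0.957% of all 24857 probes tested with every clone above every IVF embryo. The median SD over the 8 clones was 1.76 for the 20 genes with a bound of 2-fold or more and 0.63 for the other 16, beside 0.911 over all probes tested.

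**Figure D1:**
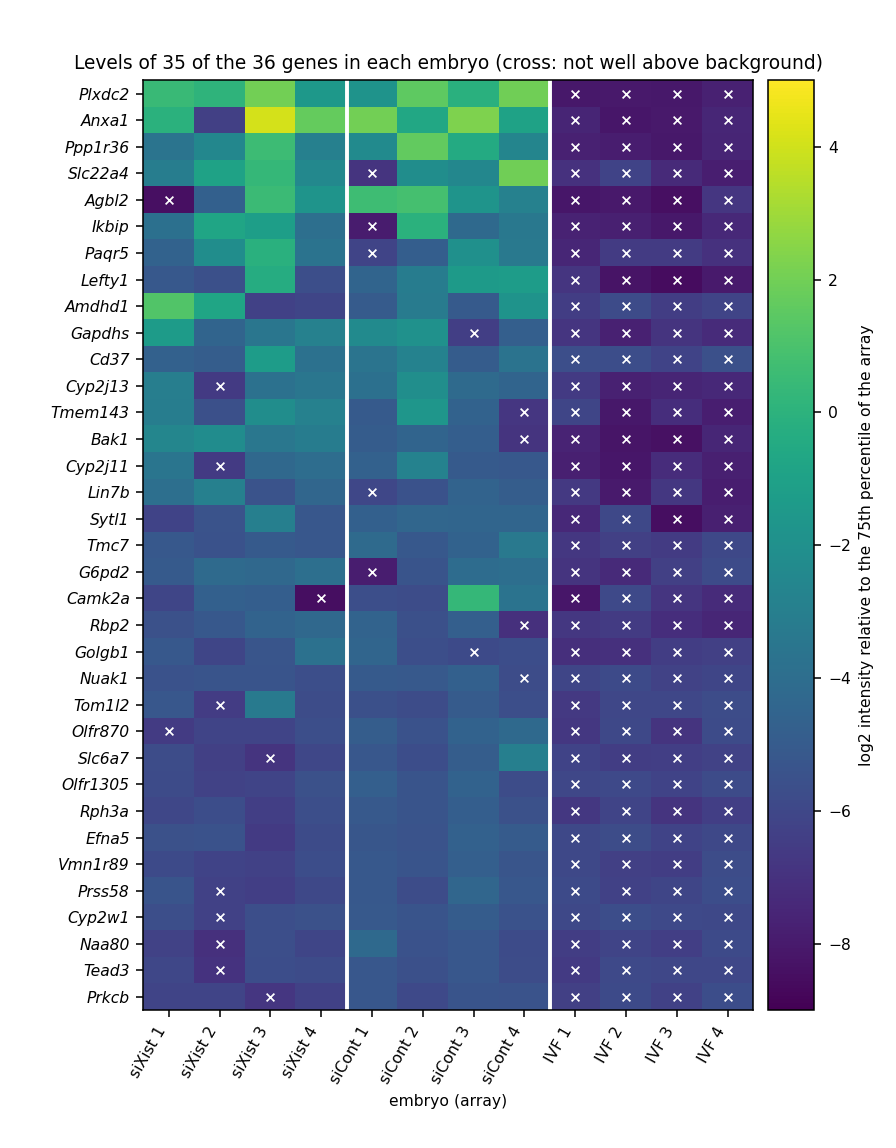
Level of each of 35 of the 36 genes (rows, from the largest bound to the smallest) in each of the 12 embryos (columns, 4 siXist clones, 4 siCont clones and 4 IVF embryos), as log2 intensity relative to the 75th percentile of the array; a cross marks a probe not well above background. The uppermost rows, such as Plxdc2, Anxa1 and Ppp1r36, stand far above their IVF values in most clones, and the lower 15 rows differ little between clones and IVF embryos.

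Detection depended on the flag. By the weaker flag of the same files, which asks only that a signal be positive and significant against background, every one of the 36 probes was detected on at least 1 IVF array. It was so on all 4 IVF arrays for 8 of the 20 genes with a bound of 2-fold or more and for 16 of the 16 others. The same criteria applied to that flag selected 18 genes, of which 0 were among the 36. The selected probes are thus clone-restricted only at the stricter flag. At that flag too, 15 of the 20 genes with another probe had one well above background on at least 1 IVF array.

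Genes for cell surface and signalling proteins included the 2 with the largest bounds. Plxdc2, a transmembrane protein with a plexin domain, had levels of 0.48, 0.10, 2.03 and -1.52 in siXist clones, -1.82, 1.53, -0.10 and 1.96 in siCont clones and -8.11, -8.02, -8.10 and -7.72 in IVF embryos. It was bright in every clone, near background in every IVF embryo and at least 80.5-fold higher in clones. Anxa1, annexin A1, a calcium-dependent phospholipid-binding protein known for its part in resolving inflammation, stood at -0.04, -6.33, 4.08 and 1.70 in siXist clones, 2.01, -0.63, 2.28 and -0.95 in siCont clones and -7.56, -8.15, -8.02 and -7.48 in IVF embryos. Clone 2 of the siXist arm was barely detected, while siXist clone 3 had the highest Anxa1 level of the 12 embryos. The bound was 76.9-fold over all 8 clones and 148-fold without siXist clone 2.

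Lefty1, a secreted inhibitor of Nodal signalling, measured -5.15, -5.56, -0.35 and -5.66 in siXist clones, -4.51, -3.10, -1.36 and -1.29 in siCont clones and -6.82, -8.24, -8.52 and -7.98 in IVF embryos. The 3 dimmer siXist clones lay below all siCont clones, and siXist clone 3 lay above them, with an overall bound of 6.18-fold over IVF embryos. Paqr5, a membrane progestin receptor, measured -4.59, -2.14, -0.11 and -3.70 in siXist clones, -6.12, -4.81, -1.96 and -3.32 in siCont clones and -7.51, -6.55, -6.56 and -7.02 in IVF embryos. It was at least 6.31-fold higher in clones, with siCont clone 1 not above background. Cd37, a tetraspanin of leukocytes, measured -4.64, -4.85, -1.24 and -3.76 in siXist clones, -3.60, -2.81, -4.92 and -3.68 in siCont clones and -5.65, -5.69, -6.20 and -5.59 in IVF embryos. All 8 clones lay above all IVF embryos for Cd37, by at least 4.27-fold on the means.

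Genes best known from sperm or from the tubulin-based axoneme were among those with bounds of 2-fold or more. Ppp1r36, a regulatory subunit of protein phosphatase 1, had levels of -3.61, -2.51, 0.62 and -2.89 in siXist clones, -2.31, 1.63, -0.46 and -2.65 in siCont clones and -7.73, -7.91, -8.08 and -7.55 in IVF embryos. It was well above background in all 8 clones, and the bound of the clone mean over IVF embryos was 22.3-fold. Agbl2, a carboxypeptidase that trims glutamate from tubulin, had levels of -8.44, -4.69, 0.52 and -1.74 in siXist clones, 0.68, 0.84, -1.73 and -2.83 in siCont clones and -8.13, -8.05, -8.43 and -6.81 in IVF embryos. Its siXist clone 1 was as dark as the IVF embryos, and the bound of 14.2-fold became 26.4-fold without that clone. Gapdhs, the glyceraldehyde-3-phosphate dehydrogenase of sperm, had levels of -1.30, -4.48, -3.49 and -2.86 in siXist clones, -2.28, -1.93, -6.42 and -4.77 in siCont clones and -6.83, -7.71, -6.88 and -7.29 in IVF embryos. It was not above background in siCont clone 3, and its bound was 5.90-fold. G6pd2, an intronless autosomal copy of the X-linked G6pdx that is known from testis, ranged from -5.02 to -3.88 in siXist clones, from -7.89 to -3.94 in siCont clones and from -7.33 to -5.82 in IVF embryos, a bound of 2.26-fold. Whether its probe also binds G6pdx RNA was not tested.

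Other metabolic genes and transporters followed. Slc22a4, a plasma membrane transporter of ergothioneine and organic cations, measured -3.05, -0.94, 0.35 and -2.45 in siXist clones, -6.89, -2.15, -2.50 and 1.97 in siCont clones and -7.01, -6.18, -7.31 and -7.84 in IVF embryos. It was dim in siCont clone 1 and bright in the other clones. The bound of the clone mean over IVF embryos was 16.5-fold, or 26.9-fold without siCont clone 1. Amdhd1, imidazolonepropionase of histidine breakdown, measured 1.22, -0.77, -6.27 and -6.05 in siXist clones, -4.96, -3.17, -5.01 and -1.83 in siCont clones and -6.44, -5.79, -6.46 and -6.14 in IVF embryos. The siXist clones 3 and 4 lay within the IVF range, and the bound of 6.07-fold became 3.86-fold without siXist clone 1.

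The cytochrome P450 genes Cyp2j13 and Cyp2j11, whose family oxidises fatty acids, lie close together on chromosome 4. Cyp2j13 had levels of -3.02, -6.60, -3.79 and -3.50 in siXist clones, -3.82, -2.06, -4.17 and -4.46 in siCont clones and -6.62, -7.74, -7.58 and -7.38 in IVF embryos. Cyp2j11 had levels of -3.55, -6.65, -4.26 and -4.02 in siXist clones, -4.65, -2.80, -5.01 and -5.16 in siCont clones and -7.75, -8.17, -7.24 and -7.77 in IVF embryos. In both, siXist clone 2 was dark and siCont clone 2 the brightest clone, and the bounds were 4.20-fold and 2.80-fold. These are closely related genes, and cross-hybridisation between their transcripts was not tested. Of the other metabolic genes, Rbp2, a retinol-binding protein of the intestine, had a bound of 1.77-fold and Cyp2w1, another cytochrome P450, of 1.24-fold.

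Bak1 is the gene of the set with the best known part in cell death. It encodes a protein that forms pores in the outer mitochondrial membrane during apoptosis. Bak1 measured -2.59, -2.18, -3.43 and -3.10 in siXist clones, -4.90, -4.51, -4.84 and -6.87 in siCont clones and -7.60, -8.18, -8.36 and -7.51 in IVF embryos by the selected probe. All siXist clones lay above all siCont clones, and these above all IVF embryos, with a bound of 3.86-fold for clones together. Ikbip, a protein that binds the kinase Ikbkb, measured -3.85, -0.78, -1.17 and -3.91 in siXist clones, -7.91, -0.06, -4.21 and -3.37 in siCont clones and -7.66, -7.77, -8.12 and -7.40 in IVF embryos. It was dark in siCont clone 1, and the bound of 7.17-fold became 11.5-fold without that clone.

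The rest of the 20 genes with a bound of 2-fold or more were Tmem143, Lin7b, Sytl1, Tmc7 and Camk2a. Tmem143, a transmembrane protein, ranged from -5.56 to -2.15 in siXist clones, from -6.78 to -1.63 in siCont clones and from -8.12 to -6.06 in IVF embryos, at least 4.12-fold higher in clones. Lin7b, a scaffold protein of cell polarity and synapses, had a bound of 2.49-fold, Sytl1, a Rab27-binding protein of vesicle traffic, of 2.46-fold, and Tmc7, of the transmembrane channel-like family, of 2.36-fold. Camk2a, a calcium- and calmodulin-dependent kinase best known from synapses, measured -6.10, -4.69, -4.80 and -8.46 in siXist clones, -5.63, -5.76, 0.30 and -3.69 in siCont clones and -8.17, -5.92, -6.84 and -7.27 in IVF embryos. The siCont clone 3 lay far above every other embryo, and the bound of 2.20-fold was 1.32-fold without it.

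**Figure D2:**
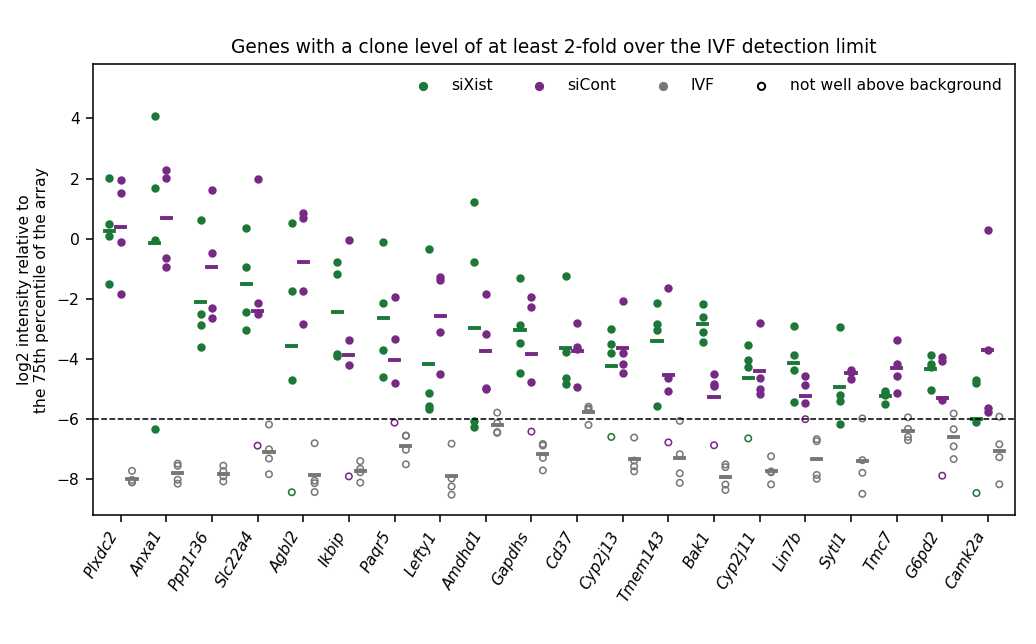
Level in each embryo (points) and class mean (short bars) of the 20 genes whose clone mean was at least 2-fold over the IVF level or detection limit, for siXist clones, siCont clones and IVF embryos, as log2 intensity relative to the 75th percentile of the array. Open points were not well above background, and the dashed line is the mean of the lowest detected levels on the IVF arrays, -6.00; Plxdc2, Anxa1 and Ppp1r36 stand clear of it in nearly every clone.

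The remaining 16 genes lay just above background. Their clone means ran from -5.90 to -5.18 and their IVF means from -6.98 to -5.88, around the lowest detected level of the IVF arrays. Among them were the trafficking and Golgi proteins Golgb1 and Tom1l2, the AMPK-related kinase Nuak1, the odorant receptors Olfr870 and Olfr1305 and the vomeronasal receptor Vmn1r89. They also included the brain proline transporter Slc6a7, the synaptic vesicle protein Rph3a, the ephrin ligand Efna5 and the trypsin-like protease Prss58. The actin acetyltransferase Naa80, the Hippo pathway transcription factor Tead3 and the protein kinase C isoform Prkcb were in the set too, as were Rbp2 and Cyp2w1. Bounds in this set ran from 1.77-fold in Rbp2 to 1.04-fold in Prkcb. Clone and IVF values did not overlap in 2 of the 16, Golgb1 and Nuak1, and in 12 of the 20 with larger bounds. Prkcb, the smallest, measured -6.14, -6.13, -6.80 and -6.29 in siXist clones, -5.17, -5.89, -5.37 and -5.44 in siCont clones and -6.32, -5.86, -6.28 and -5.70 in IVF embryos. Its siXist clones lay within or below the IVF range, and its siCont clones reached above it.

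Just outside the threshold, 53 autosomal genes were detected on 6 clone arrays and 0 IVF arrays, such as Tmprss13, with mean levels of -2.49 in clones and -7.59 in IVF embryos, Sfxn3, with -3.05 and -6.44, and Kctd7, with -3.56 and -7.92. On all 8 clone arrays and 1 IVF array there were 39 genes, such as Tmem54, with mean levels of 0.48 in clones and -5.59 in IVF embryos, and Cyp2j6, of the Cyp2j family, with -1.21 and -7.18. Just inside were Prkcb, with -5.90 in clones and -6.04 in IVF embryos, Tead3, with -5.78 and -6.16, and Naa80, with -5.71 and -6.21.

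The selection did not set siXist against siCont clones, but it used the flags of both arms, and a gene not above background in more than 1 of the 8 clones could not enter. The siXist minus siCont values of genes near background are therefore not free of the selection, and their tests are to be read with that limit. Of all 24857 probes, 0.0201% differed between siXist and siCont clones in limma at an adjusted p under 0.05. Of the 36 genes, each tested by its selected probe, 0 did. At an unadjusted p under 0.05 there were 12, beside 13.1% of all probes, of which 1 was higher and 11 were lower in siXist clones, beside 4.59% higher and 8.53% lower of all probes. The smallest adjusted p was that of Bak1, 0.253, with a difference of 2.46 ± 0.55 (SE, n = 4 each). All 4 siXist clones lay above all 4 siCont clones for Bak1 by this probe. Its adjusted p ran from 0.0837 to 0.450 over the alternatives.

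In 9 of the 36 genes the siXist and siCont values did not overlap, beside 7.64% of all probes, and 8 of these were among the 16 dim genes. Levels were lower in siXist clones in 23 of the 36, beside 58.1% of all probes, with a median difference of -0.57, beside -0.17 over all probes. Splitting at a bound of 2-fold, a division made after the values were seen, the 20 genes with the larger bounds had 10 higher and 10 lower and a median of 0.00. The 16 dim genes had 3 higher and 13 lower and a median of -0.78, and 10 of them had an unadjusted p under 0.05, all lower in siXist clones. The lowest detected level moved the same way, by -0.58 between the arms, and its part in these differences was not tested.

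Examples from the dim set show the size. Olfr870 averaged -6.11 ± 0.38 in siXist clones and -4.80 ± 0.51 in siCont clones (SD, n = 4 each), a difference of -1.32 ± 0.34 (SE) with a limma adjusted p of 0.277. Slc6a7 averaged -6.26 ± 0.48 in siXist clones and -4.67 ± 1.20 in siCont clones, a difference of -1.59 ± 0.56 with a limma adjusted p of 0.331. Both kept their sign in all 24 alternatives. A further 8 genes with an unadjusted p under 0.05, Tmc7, Olfr1305, Rph3a, Efna5, Vmn1r89, Prss58, Naa80 and Prkcb, had differences of -1.10 to -0.75 and changed sign in the authors' deposited table. There the median over all probes was 0.97 and the median of the 36 genes 0.57, so that relative to all probes the 36 genes lay at -0.40, against -0.39 in the 75th percentile scaling.

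Among the 20 genes with larger bounds, large differences went with large errors. Agbl2 differed by -2.83 ± 1.68, Camk2a by -2.32 ± 1.34, Lefty1 by -1.61 ± 1.21, Ikbip by 1.46 ± 1.43 and Paqr5 by 1.42 ± 1.07 (siXist minus siCont, ± SE, n = 4 each), with limma adjusted p-values of 0.473, 0.463, 0.560, 0.655 and 0.562. Lin7b, at 1.09 ± 0.53 with an adjusted p of 0.412, came next to Bak1 among the higher genes by p. Plxdc2 differed by -0.12 ± 0.90 and Anxa1 by -0.83 ± 1.86, with adjusted p-values of 0.961 and 0.858, and both changed sign under some alternatives.

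**Figure D3:**
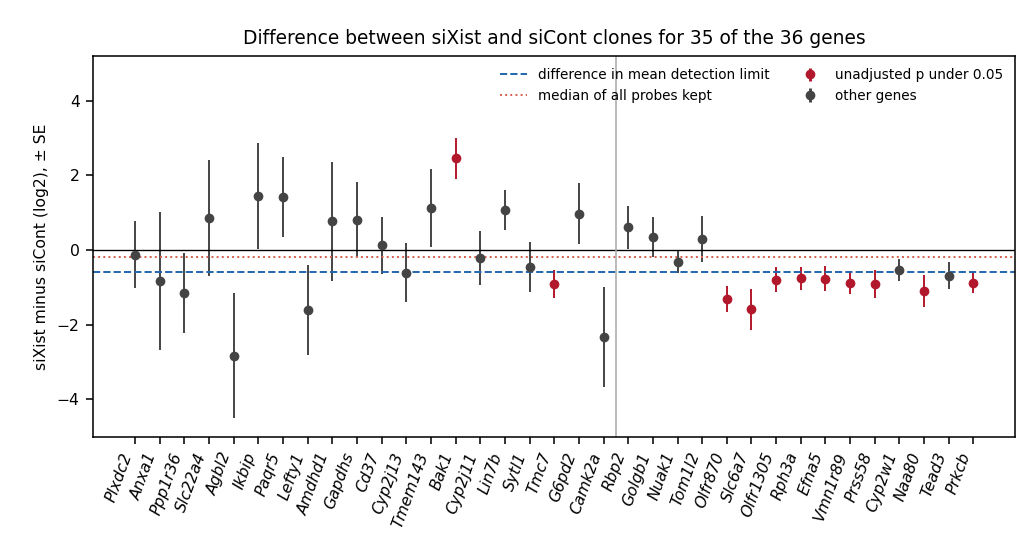
Difference in level between siXist and siCont clones (log2, points, with the limma standard error as bars) for each of 35 of the 36 genes, ordered as before from the largest bound to the smallest; the grey line parts the 20 genes with larger bounds from 15 of the dim ones. Genes with an unadjusted p under 0.05 are in red, the dashed line is the difference in the mean of the lowest detected levels, -0.58, and the dotted line the median of all probes, -0.17; most dim genes cluster near the dashed line or below it.

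No other probe for these genes met the criteria. The array carried 26 other probes for 20 of the genes and none for the other 16. Of the 26, 0 met the selection criteria and 19, from 15 genes, were well above background on at least 1 IVF array. A further 5 were detected in 1 to 6 clones and no IVF embryo, and 2, for Cyp2j11 and Rph3a, on none of the 12 arrays. Leaving out genes with another probe detected in an IVF embryo left 21 genes, 16 of them with a single probe.

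In 6 genes, Cd37, Bak1, Golgb1, Tom1l2, Efna5 and Naa80, another probe was detected in all 4 IVF embryos. The other Bak1 probe measured -2.06, -2.72, -2.54 and -2.16 in siXist clones, -2.05, -2.63, -1.41 and -2.54 in siCont clones and -2.32, -2.17, -2.34 and -2.36 in IVF embryos. By that probe the 3 classes overlapped fully, the means being -2.26 in clones and -2.29 in IVF embryos, and the arms averaged -2.37 in siXist clones and -2.16 in siCont clones. The other Naa80 probe averaged -2.47 ± 0.84 in clones and -2.56 ± 0.45 in IVF embryos (SD, n = 8 and 4). Of the other Tom1l2 probes, 1 averaged 1.10 ± 0.97 in clones and 0.61 ± 0.32 in IVF embryos, and the other -2.35 ± 1.08 in clones and -2.65 ± 0.81 in IVF embryos. By each of these probes the range of the clones overlapped that of the IVF embryos. No probe sequence was used here, so what part of each transcript a probe binds is not given.

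Several other probes did point the same way. The other Cd37 probe tracked the selected one, with -4.63, -4.47, -1.08 and -3.40 in siXist clones, -3.35, -2.66, -4.81 and -3.25 in siCont clones and -4.99, -4.15, -5.62 and -4.01 in IVF embryos. Clones 3 of siXist and 2 of siCont were the brightest of their arms by both Cd37 probes, though the other probe was detected in every IVF embryo and its classes overlapped. The other Ikbip probe averaged -2.55 ± 3.28 in clones and -5.28 ± 2.43 in IVF embryos. It was among the 9 of 26 other probes that averaged over 1 log2 unit higher in clones, values under background included. The share of all probes with such a difference was not computed, so no excess is read from this count. The 9 include dim probes of Golgb1 and Amdhd1, at 1.64 and 2.01, detected in 3 and 4 clones and 0 IVF embryos. No direction is read from these dim probes. The Golgb1 probes detected in every embryo differed by only 0.33 and 0.61. Another Golgb1 probe, at 1.02, was detected in 4 siXist clones, 0 siCont clones and 2 IVF embryos. It averaged -1.50 in siXist clones, -7.47 in siCont clones and -5.50 in IVF embryos. The other Cyp2j13 probes were well above background in 0 clones and in 1 clone, and in 1 IVF embryo each, so no direction is read from them.

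**Figure D4:**
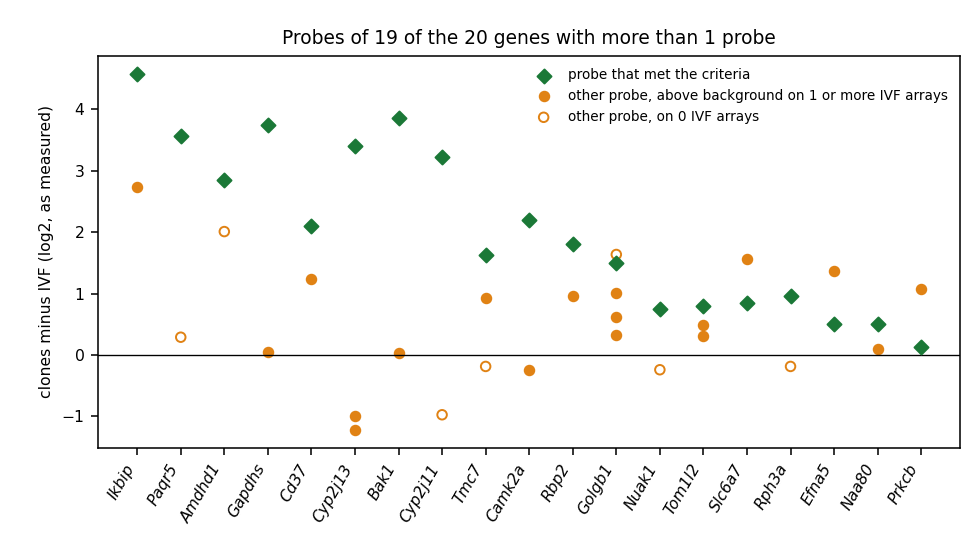
Mean clone level minus mean IVF level (log2, as measured) for every probe of 19 of the 20 genes that had more than 1; diamonds are the probes that met the criteria, filled circles other probes detected on at least 1 IVF array, open circles other probes detected on none. The diamonds are high by the selection itself and values under background are included as measured; the other probes of Bak1 and Naa80 lie near 0.

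The 36 genes lay on 14 autosomes. Chromosome 7 carried 7 (Gapdhs, Cd37, Tmem143, Lin7b, Tmc7, Vmn1r89 and Prkcb), chromosomes 2 and 9 carried 4 each, and no other carried more than 3. The share of all genes with a probe on each chromosome was not computed, so no clustering is read from these counts. In RefSeq gene order (GRCm38.p6), 3 pairs stood close together. Camk2a and Slc6a7 on chromosome 18 were 4 places apart and directly next to each other among protein-coding genes. Cyp2j13 and Cyp2j11 on chromosome 4 were 5 places apart, and Cd37 and Lin7b on chromosome 7 were 10 places apart. All other neighbours among the 36 on a chromosome were at least 41 places apart.

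Genes beside the 36 were not used in the selection and were tested between clones and IVF embryos. The 2 nearest RefSeq genes on each side came to 143 genes, of which 63 had a probe and 55, beside 22 of the 36, were tested. Of the 55, limma called 1 higher and 0 lower in clones, where 0.744% of all probes were called, 0.354% higher and 0.390% lower. Of the 55, 11 had an unadjusted p under 0.05 and a higher level in clones, beside 5.15% of all probes, and 4 a lower level, beside 7.58%. The median difference was 0.22, beside -0.12 over all probes, with 31 genes higher and 24 lower. Among neighbours with a probe, the annotated spans of Apaf1, Sbsn, Ggnbp1 and Mtag2 overlap those of Ikbip, Gapdhs, Bak1 and Lin7b in that order, and both Hyal1 and Hyal3 overlap Naa80. Whether a probe of such a gene also reads its partner was not tested. Apaf1, Sbsn, Hyal1 and Hyal3 were among the 11 higher genes, so that count is not separate from the loci of the 36. Hyal1 was well above background in 4 clones and 0 IVF embryos, so it entered the tests only through clones.

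The called gene was Ephx1, microsomal epoxide hydrolase, 2 genes away from Lefty1. Its levels were 2.31, 1.99, 2.41 and 2.80 in siXist clones, 2.66, 2.71, 1.96 and 2.29 in siCont clones and 1.35, 0.50, 0.58 and -0.02 in IVF embryos. Every clone lay above every IVF embryo, with a clones minus IVF difference of 1.79 ± 0.29 (SE) and a limma adjusted p of 0.0239. The call held in 16 of 23 alternatives and was lost without siCont clone 2, without any of the 4 IVF embryos in turn, with a replicate block and in the authors' table, with an adjusted p of up to 0.233, while the difference stayed between 1.26 and 1.98.

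The next neighbours by p did not pass the adjusted threshold. Sbsn and Dmkn, epidermal secreted proteins beside Gapdhs, differed by 3.72 ± 0.93 and 3.07 ± 0.72 (SE), with limma adjusted p-values of 0.129 and 0.105. Sbsn stood at 5.16, 1.56, 5.05 and 0.27 in siXist clones, 1.60, 3.68, 1.24 and 2.35 in siCont clones and -0.78, -1.59, 0.00 and -2.05 in IVF embryos. All 8 clones lay above all 4 IVF embryos for Sbsn, and its annotated span overlaps that of Gapdhs. Dkkl1, a secreted protein of sperm and early embryos beside Cd37, differed by 1.47 ± 0.42 (adjusted p = 0.171). On the lower side were Oas1d, an oocyte member of the oligoadenylate synthetase family beside Rph3a, at -1.76 ± 0.41 (0.105), Ifrd2 at -1.31 ± 0.45 (0.260), the hyaluronidase gene Hyal2 at -1.42 ± 0.61 (0.369), and Snrnp70, of the U1 spliceosomal particle, at -0.65 ± 0.28 (0.374), the values in brackets being limma adjusted p-values. Hal, the enzyme that opens histidine breakdown and the direct neighbour of Amdhd1, was looked up after values had been seen and differed by 0.44 ± 0.96 with a limma adjusted p of 0.879.

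**Figure D5:**
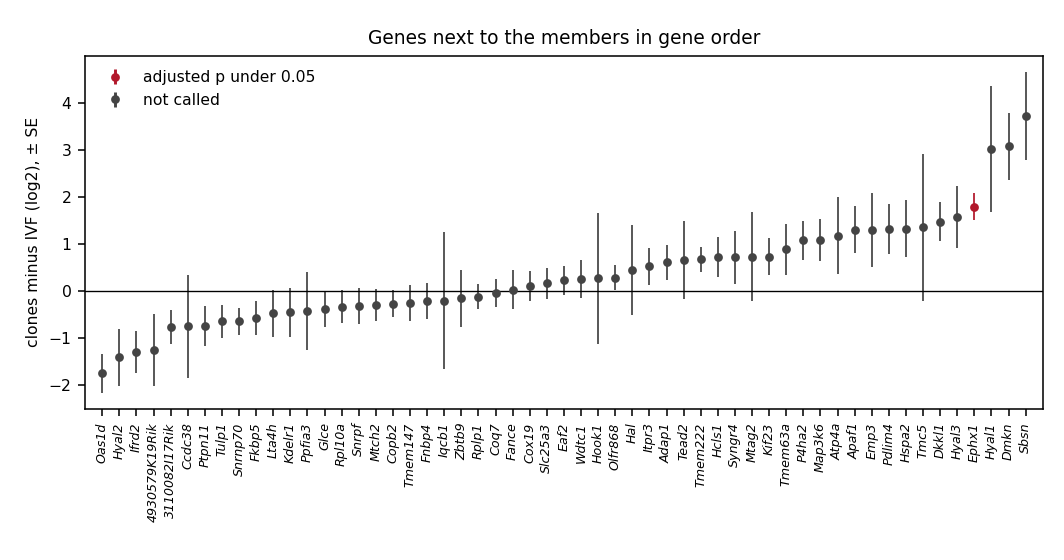
Difference between clones and IVF embryos (log2, points, with the limma standard error as bars) for the genes tested among the 2 nearest on each side of the 36, ordered by difference. Ephx1, in red, was the gene with an adjusted p under 0.05, while Sbsn and Dmkn lay higher with wider errors.

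None of the 36 belonged to any of 21 lists of cell type, germline, imprinted, stress and developmental genes. The lists were short, with 6 sperm and 20 neuronal synapse genes, and left out Gapdhs, Camk2a, Rph3a and Lin7b. Absence from them therefore says little about the roles of the 36. Of the lists nearest to the roles of the 36, the sperm list had 4 tested genes, methylation-silenced germline genes 23, neuronal synapse genes 9 and p53 targets 15. Limma called 0 in each of these lists between clones and IVF embryos, where 0.744% of all probes were called. At an unadjusted p under 0.05 these held 0, 4, 1 and 4 higher and 0, 6, 1 and 0 lower in clones, beside 5.15% of all probes higher and 7.58% lower, with median differences of 0.50, -0.48, -0.09 and 0.88. Markers of the donor cell, 10 Sertoli genes tested, had 0 called, while 3 were higher and 1 was lower where the unadjusted p was under 0.05, against the same shares of all probes. The higher ones were Clu, Cldn11 and Trf, with clones minus IVF differences of 1.42, 1.81 and 1.01 (limma adjusted p = 0.325, 0.371 and 0.361). Cldn11 was well above background in 5 clones and 0 IVF embryos. The lower one was Sox9, at -3.97 (limma adjusted p = 0.367). Summed over the 10, the linear level ran from 2.32 to 5.47 in siXist clones, from 2.47 to 6.18 in siCont clones and from 3.38 to 5.15 in IVF embryos. Much of that sum was Dhh and Gata1, with mean levels of 0.13 and -0.13 in siXist clones, 0.09 and -0.28 in siCont clones and 0.25 and -0.09 in IVF embryos. It is therefore not a measure of donor cell RNA. The Sertoli gene Amh was not above background on any array. For 5 cumulus and granulosa genes, with 0 called and 0 at an unadjusted p under 0.05, the sum ran from 36.7 to 98.6 in siXist clones, from 55.1 to 97.2 in siCont clones and from 52.1 to 84.5 in IVF embryos. Nearly all of that sum was Gja1, with mean levels of 5.87 in siXist clones, 6.07 in siCont clones and 6.01 in IVF embryos, so it is not a measure of cumulus cells. The cumulus gene Ptx3 was well above background in 5 of 8 clones and 1 of 4 IVF embryos, with a clones minus IVF difference of 0.89 and a limma adjusted p of 0.581. That difference pools unlike arms, since Ptx3 averaged -8.75 in siXist clones, -4.49 in siCont clones and -7.51 in IVF embryos. The blood markers Ptprc and Lyz2 were not above background on any array. In whole embryos, fewer cells making a transcript and less RNA per cell cannot be told apart.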

How the data were processed

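Each of 12 arrays held Cy3-labelled RNA of a single morula, amplified in successive rounds per the labels' protocols. Per the file headers, the authors' files hold intensity from Agilent Feature Extraction 10.5.1.1 with a grid annotated on mm9. The processed signal, an intensity that the software background-corrected per the file headers, was not normalised between arrays. The authors' deposited value table is on a log2 scale and served as an alternative. Its columns followed the log2 processed signal with a constant per array (correlation of array differences 1), its probes are centred and its direction is the same, while the basis of its constants is unknown. Its column medians were 0.015, 0.539, -0.179 and -0.219 for siXist clones, -0.048, -0.715, -1.621 and -0.116 for siCont clones and 0.565, -0.007, 0.745 and 0.322 for IVF embryos.

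Here, log2 processed signal minus that of the 75th percentile of non-control probes was used, without outlier spots and with spots of a probe averaged. There were 0 saturated spots, the 75th percentile was 507.1 to 1133.2 in intensity, and the number of arrays limits the precision. A probe was called detected when at least 0.5 of its spots carried the flag, which is a yes or no mark of the software. Unversioned accessions matched RefSeq (GRCm38.p6) for 26888 of 41174 probes. RefSeq gave names, chromosomes, gene order, annotated spans and promoter windows. Probes detected on at least 3 of 4 arrays of a class (24857) were fitted in limma 3.58.1 (R 4.3.3) with means for siXist, siCont, IVF male and IVF female and 8 residual degrees of freedom, with Benjamini-Hochberg adjustment over all of them, two-sided, and the fit was tested on simulated data. Clones were the mean of both arms and IVF the mean of both sexes. All genes that met the criteria were to be named if 40 or fewer, with up to 3 genes on each side of the threshold and up to 4 neighbours each way by p. Of these, 1 of the 36 genes and 1 gene outside the threshold are not reported here by name or value, though counts and medians include them. The genes and lists were chosen with earlier results of these data known. Alternatives were other background corrections, scalings, filters, weights, variance models, detection rules, a replicate block and leaving out each array. The bounds without single arrays were chosen after seeing the data.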

Additional observations from a re-analysis of the deposited data

Results flagged for a closer look

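In each class of 4 embryos, a value was marked when its gap to the nearest other embryo took up most of the range of the class, for 72 groups of values (36 genes in siXist and in siCont clones), and 3 were marked. Chance marks about 1 in 20 such groups. Lefty1 in siXist clone 3 had a level of -0.35, while the other siXist clones lay between -5.66 and -5.15. Bak1 in siCont clone 4 had a level of -6.87, not well above background, while the other siCont clones lay between -4.90 and -4.51. Cyp2w1 in siXist clone 2 had a level of -6.28, not well above background, while the other siXist clones lay between -5.64 and -5.51.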

How the results depend on the processing

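The 36 genes had 0 calls between siXist and siCont clones under all 25 alternatives. Their median siXist minus siCont difference (-0.57) moved to -0.17 with normexp and quantile normalisation and to 0.57 in the authors' table, and their median clones minus IVF difference (1.95, against IVF values not above background and fixed in direction by the selection) to 0.51, 1.42, 1.31 (dim values raised to the detection limit) and 1.57 (1 feature per gene). Without each array in turn these ran from -0.70 to -0.31 and from 1.68 to 2.14. The median of the neighbours (0.22) became -0.31 in the authors' table, where all probes had a median of -0.65, and ran from 0.09 to 0.30 without single arrays. Probes called between siXist and siCont clones (5) numbered 3 with quantile normalisation, median scaling, a filter of 6 arrays or array weights, 2 with no filter, raised dim values, a robust trend or 1 feature per gene, 0 with normexp, 15 with only the groups compared, 24 in the authors' table, and 6 to 70 without single arrays (70 without siXist clone 1). Probes called between clones and IVF embryos (185, 88 higher and 97 lower) numbered 108 (28 and 80) in the authors' table, 112 (79 and 33) with a filter of 6 arrays and 376 with array weights, and 64 to 203 without single arrays (64 without IVF embryo 1, 73 without IVF embryo 3, 119 without siCont clone 2 and 123 without IVF embryo 4). Neighbours called (1) became 0 in the authors' table, with 1 neighbour on each side, and without siCont clone 2 or any IVF embryo, a range of 0 to 1. The criteria selected 12 genes with all 8 clones, 89 with 6 or more, 142 with up to 1 IVF array, 18 with the weaker flag, 21 without genes whose other probes were detected in IVF embryos, and 43 to 80 without single arrays (61 without siCont clone 3, 64, 62 and 80 without IVF embryos 1, 2 and 3). Each set without a single array held all 36 genes, since 1 dim clone was still allowed among the clones left. Those counts could therefore only rise, and they do not measure how stable the set is. Of the other probes, 7 were on no IVF array, 14 on at most 1 and 2 by the weaker flag.

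Same-numbered embryos did not deviate together (correlations from -0.145 to 0.070, and 0 of 4 siXist clones matched their own number best), so the numbers were not used as pairs. The labels do not say what the numbers mean, and these correlations cannot exclude a shared session. With the number as a replicate block, 0 probes were called between siXist and siCont clones, 58 (21 higher, 37 lower) between clones and IVF embryos and 0 neighbours. Clones against IVF embryos had no separate value with only the groups compared, which are all arrays. Quantile normalisation gave 105 higher and 79 lower calls between clones and IVF embryos, and no filter 84 and 129.

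Levels near background carry the least information: 14 of the 36 genes had a clone median within 1 log2 unit of the detection limit. There was 1 slide and scan per class, 4 embryos per class and no repeat array of any embryo.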

Other observations

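The same detection criteria were met by 53 probes in all, of which 14 had no RefSeq gene and 2 were X-linked. The mirror image, detection on all 4 IVF arrays and on 0 or 1 clone arrays, held for 34 autosomal genes, beside the 37 that met the criteria in the direction described. Across the 36 genes the largest SD over the 8 clones was 3.18 and the smallest 0.34.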
